A study of Mus musculus with 2 samples.

Results

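Distal convoluted tubule (DCT) nuclei were examined in the nuclei of mouse kidneys sequenced with a droplet 3′ method (snRNA-seq), in 1 library from late embryos (embryonic day, E18.5) and 1 from newborns (postnatal day, P3). A barcode was kept when it had 1000 to 6000 unique molecular identifiers (UMIs) at E18.5, or 1000 to 10000 at P3, and at most 0.6% of its UMIs from mitochondrial genes. A kept nucleus was counted as a DCT nucleus when it had at least 1 UMI of Slc12a3 and a UMI of at least 3 of the 7 genes Slc12a3, Trpm6, Trpv5, Calb1, Slc8a1, Egf and Kl. By this rule 582 of 27962 kept nuclei were DCT nuclei, 272 of 18673 at E18.5 and 310 of 9289 at P3. The nuclei were chosen by the levels of these 7 genes, so the 7 genes are given below as a description only.

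The E18.5 kidneys carried floxed Myc and Mycn alleles with no Cre and came from mice of a mixed background. The P3 kidneys were wild type, of strain C57BL/6J in the sample labels and of a mixed background in the study's methods. In both cases the kidneys of male and female mice were pooled before nuclei were isolated, so a library is a pool and not an animal. With 1 library per age there was no replicate and no test, and age, genotype, background, library and software release cannot be told apart. All intervals below are exact 95% intervals that cover counting error only.

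The DCT is the short segment that follows the thick ascending limb of the loop of Henle and leads into the connecting tubule. Its cells take up sodium and chloride through the thiazide-sensitive cotransporter NCC, the product of Slc12a3, and pass sodium on to the blood side through Na,K-ATPase. The WNK and SPAK kinases set NCC activity, and the segment is also known for magnesium uptake through TRPM6 and, in its late portion, for calcium uptake through TRPV5 with calbindin and the sodium-calcium exchanger.

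DCT nuclei made up 1.46% of the kept nuclei at E18.5 (95% binomial interval 1.29 to 1.64) and 3.34% at P3 (2.98 to 3.72). Members with 2 or more Slc12a3 UMIs alone made up 0.750% and 1.59%, and members without 3 genes of another cell class 0.438% and 0.554%, although 81.2% and 87.0% of the other nuclei also held 3 such genes. All DCT nuclei together held 983069 UMIs at E18.5 and 1729126 at P3, with a median of 3485 and 5517 UMIs per nucleus against 2952 and 4289 in the other kept nuclei. When every nucleus was thinned to 1000 UMIs before the rule was applied, the shares were 0.530% and 1.20%. The P3 share was the higher in the thinned nuclei too, and both shares were lower than without thinning. Thinning matched the UMIs per nucleus only, and the cause of the difference in share was not tested. The libraries shared 69 barcode sequences among all deposited barcodes and 52 among the kept ones, and no DCT nucleus of one library had a barcode of a DCT nucleus in the other.

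The number of rule genes with a UMI was 3 in 176 of the 272 DCT nuclei at E18.5 and in 192 of the 310 at P3. It was 4 in 49 and 44 nuclei, 5 in 31 and 53, 6 in 16 and 19, and 7 in none at E18.5 and 2 at P3. Just outside the rule lay 533 and 486 kept nuclei with Slc12a3 and 1 other rule gene. Among the nuclei just inside it, those with 3 rule genes, Slc8a1 was present in 94.9% at E18.5 and 95.8% at P3 and Calb1 in 47.2% and 27.1%. Trpm6 was present in 17.6% and 17.7% of these nuclei and Trpv5 in 3.41% and 1.56%. Slc8a1 was common outside the DCT nuclei too, with a UMI in 60.7% and 81.4% of the other kept nuclei, where Calb1 had one in 12.6% and 8.06%.

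DCT nuclei were not uniform in Slc12a3. At E18.5, 132 of the 272 had a single Slc12a3 UMI, 24 had 2 to 4, and 116 had 5 or more, up to 64. At P3, 162 of the 310 had a single UMI, 30 had 2 to 4, and 118 had 5 or more, up to 117. The median among the nuclei with 2 or more was 16.5 UMIs at E18.5 and 27.0 at P3. The nuclei with 2 or more UMIs, 140 at E18.5 and 148 at P3, held 94.8% and 96.6% of the Slc12a3 UMIs of all DCT nuclei, and they are called Slc12a3-rich DCT nuclei below. Few nuclei therefore lay between a group at 1 UMI and a group at 5 or more.

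**Figure D1:**
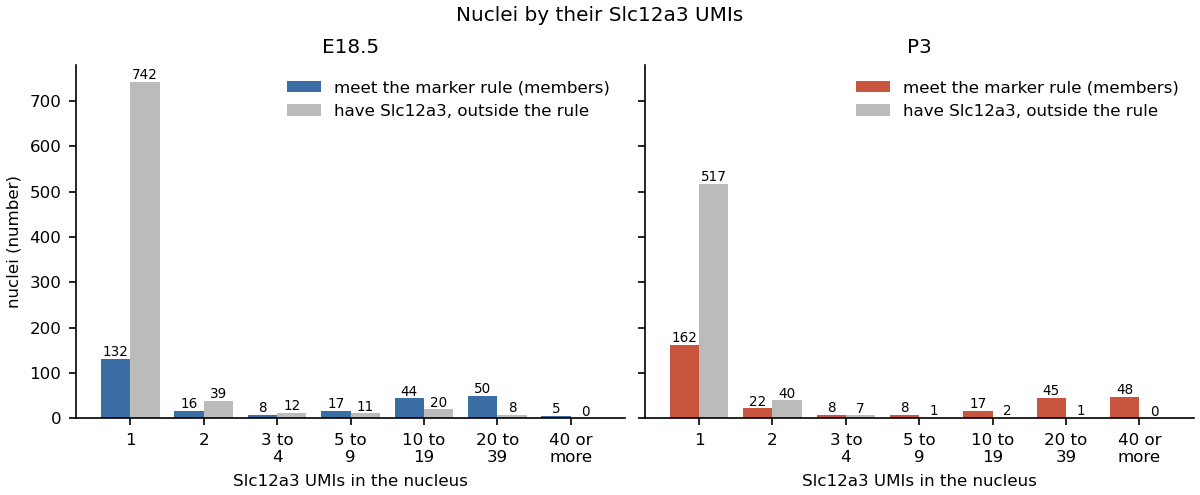
Number of kept nuclei (y axis) by their number of Slc12a3 UMIs (x axis) at E18.5 and P3, as coloured bars for nuclei that met the marker rule and grey bars for nuclei that had Slc12a3 but did not meet it. The 132 and 162 DCT nuclei with a single UMI stand apart from a second group with 10 to 39 UMIs at E18.5 and 20 or more at P3.

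Genes that the rule did not use were set beside this split. Abca13, an ABC-family transporter gene, stood at 28.5 UMIs per 1000000 UMIs (CPM, over the summed UMIs of a class) in E18.5 DCT nuclei with 1 Slc12a3 UMI, at 30.5 in the other kept nuclei and at 2254 in Slc12a3-rich DCT nuclei. The same levels at P3 were 75.3, 68.4 and 2454 CPM. Klhl3, which encodes the substrate adaptor that targets WNK kinases for degradation, stood at 50.5, 37.4 and 669 CPM at E18.5 and at 64.1, 58.2 and 982 CPM at P3. Esrrb, an orphan nuclear receptor gene, stood at 4.39 (2 UMIs), 7.57 and 193 CPM at E18.5 and at 16.9, 14.5 and 250 CPM at P3. For each of these 3 genes the nuclei with a single UMI were near the other nuclei at both ages, and the Slc12a3-rich nuclei were far above both.

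The homeobox gene Emx1 differed from that pattern. It stood at 39.5 CPM in the single-UMI nuclei and 6.95 in the other nuclei at E18.5, a ratio of 5.69 (3.33 to 9.11), and at 15.7 and 5.51 CPM at P3, a ratio of 2.85 (1.54 to 4.89). Its level in Slc12a3-rich nuclei was 169 CPM at E18.5 and 191 at P3. The epithelial sodium channel subunit gene Scnn1b and the mineralocorticoid receptor gene Nr3c2 were also above the other nuclei in single-UMI nuclei at E18.5, with ratios of 2.24 (1.57 to 3.10) and 2.11 (1.63 to 2.69). Their ratios at P3 were 1.41 (0.995 to 1.93) and 1.27 (1.06 to 1.52). Genes of other cells varied too. Among genes with a mean of at least 25 CPM, the proximal tubule gene Slc27a2 was at least 2-fold higher at E18.5. The intercalated cell gene Slc26a4 was so at P3. None of the 14 and 13 distal transcription factor genes with that mean was, beside 0.599% and 0.238% of all genes. Podocyte genes summed to 1.27 and 1.25 times the other nuclei, and endothelial genes to 0.521 times at both ages.

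Over all genes with a mean of at least 25 CPM in the 2 classes compared, with the 7 rule genes left out, 46 of 7684 (0.599%) were at least 2-fold higher in single-UMI DCT nuclei than in the other nuclei at E18.5, and 47 (0.612%) at least 2-fold lower. At P3 the counts were 17 of 7133 (0.238%) and 20 (0.28%). In Slc12a3-rich nuclei 504 of 7562 genes (6.66%) were at least 2-fold higher at E18.5 and 713 (9.43%) at least 2-fold lower, and 379 of 7010 (5.41%) and 578 (8.25%) at P3. Over all DCT nuclei together the counts were 268 of 7670 (3.49%) and 99 (1.29%) at E18.5, and 164 of 7070 (2.32%) and 58 (0.82%) at P3. These counts go by size alone, and since the nuclei were selected on markers of the same segment nothing is read from their number. Checked against genes outside the rule, Slc12a3-rich nuclei fit the DCT label by Klhl3 and Emx1, which were also far above their levels in thick limb nuclei, while Abca13 was above the thick limb by a smaller factor and Esrrb, lower than in the thick limb at E18.5, does not tell the DCT from that neighbour. In nuclei with a single Slc12a3 UMI Abca13, Klhl3 and Esrrb were near the level of the other nuclei and Emx1 was above it. These nuclei are called DCT nuclei only because they met the rule, and Abca13, Klhl3 and Esrrb do not bear the name out.

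Levels differed along the Slc12a3 count. Klhl3 stood at 128 CPM in E18.5 DCT nuclei with 2 Slc12a3 UMIs, at 564 with 3 to 4, and at 999 with 40 or more. At P3 the same levels were 109, 542 and 1468 CPM. Abca13 stood at 112 CPM with 2 UMIs and 955 with 3 to 4 at E18.5, and at 150 and 542 CPM at P3. Nuclei with 2 UMIs, 16 at E18.5 and 22 at P3, were thus nearer to those with 1 than were nuclei with 3 to 4, of which each library had 8.

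**Figure D2:**
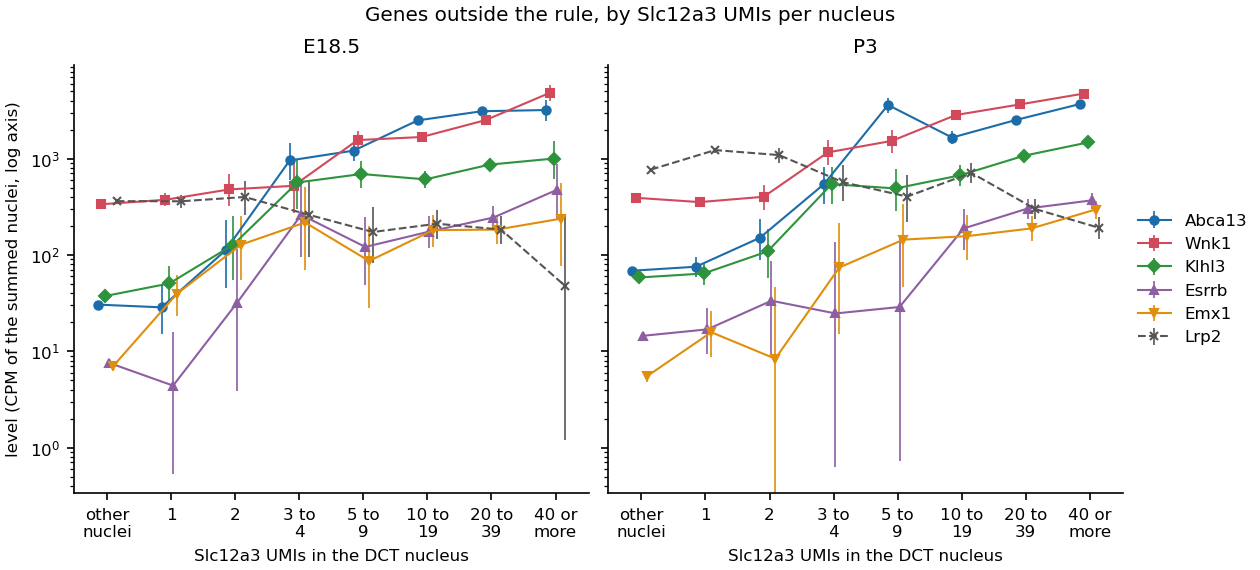
Level in CPM (log y axis) of 5 genes high in DCT nuclei and of the proximal tubule gene Lrp2 (dashed), in the other kept nuclei and in DCT nuclei grouped by their Slc12a3 UMIs (x axis), with exact 95% Poisson intervals as bars. Klhl3 and Abca13 stay near the other nuclei at 1 UMI and are higher from 3 to 4 UMIs on, whereas Lrp2 is lower in the nuclei with 20 or more UMIs than in those with 1.

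Slc12a3 was also found at a low level in kept nuclei that did not meet the rule, and the source of these UMIs was not tested. Of all kept nuclei, 5.91% at E18.5 and 9.45% at P3 had a Slc12a3 UMI, and 4.34% of 1566 endothelial nuclei (3.39 to 5.47) and 7.06% of 1005 (5.56 to 8.83) had one. The endothelial class leaves out 13 DCT nuclei at E18.5 and 24 at P3 that also met the endothelial rule. All of these had a Slc12a3 UMI, so the endothelial shares and levels of Slc12a3 are lower than without that exclusion. Endothelial nuclei, which should lack the gene, stood at 14.6 CPM of Slc12a3 at E18.5 and 16.2 at P3, against 25.4 and 16.6 in all the other kept nuclei and 4590 and 5409 in Slc12a3-rich DCT nuclei. At E18.5, 564 of the 1425 Slc12a3 UMIs of the other kept nuclei came from 39 nuclei with 5 or more such UMIs.

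The rule also passed over nuclei with many Slc12a3 UMIs. Of the 155 kept nuclei with 5 or more Slc12a3 UMIs at E18.5, 39 (25.2%) did not reach 3 rule genes, against 4 of 122 (3.28%) at P3. In the 39 nuclei at E18.5, with a median of 3071 UMIs, none had a Calb1 or a Trpv5 UMI, 13 had Slc8a1 and 7 had Trpm6. Slc8a1 stood there at 925 CPM, against 924 in the other kept nuclei. Genes that the rule did not use were at or above the level of the Slc12a3-rich DCT nuclei: Abca13 at 2447 CPM (2174 to 2745), Klhl3 at 790 (639 to 967), Emx1 at 252 (170 to 360), Esrrb at 244 (163 to 350) and Kcnj10 at 75.7 (34.6 to 144). Trpm7, a magnesium-permeable channel kinase gene, stood at 2363 CPM (2095 to 2656) in these nuclei and at 1615 in Slc12a3-rich DCT nuclei. The Slc12a3-rich nuclei include 24 with 2 to 4 Slc12a3 UMIs, so the groups compared here were not set at the same Slc12a3 threshold. Nothing is read from the size of these differences. All kept nuclei with 5 or more Slc12a3 UMIs, whatever the other genes, made up 0.830% (0.705 to 0.971) of the E18.5 library and 1.31% (1.09 to 1.57) of the P3 library.

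The rule genes themselves were as follows. Slc12a3 stood at 2597 CPM over all DCT nuclei at E18.5 and 2720 at P3. Trpm6, the magnesium channel gene, stood at 535 CPM in Slc12a3-rich nuclei at E18.5 and 735 at P3, and at 15.4 and 22.5 in single-UMI nuclei. Slc8a1, the sodium-calcium exchanger gene, stood at 15240 and 18418 CPM in Slc12a3-rich nuclei and at 1468 and 1659 in single-UMI nuclei. Calb1, which encodes calbindin, stood at 787 and 1260 CPM in Slc12a3-rich nuclei, and Kl, which encodes the FGF23 co-receptor Klotho, at 286 and 752. Trpv5 was sparse, at 64.5 and 39.3 CPM. Egf, the epidermal growth factor gene, was at 15.2 CPM at E18.5, where the other nuclei had 11.4, and at 41.7 at P3, where thick limb nuclei had 62.0.

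To show where genes that stand out together lie, promoters from RefSeq (assembly GRCm38.p6, 250 bases before to 50 after the start site) were read for the rule genes and for the 10 genes with the highest ratio of all DCT nuclei to the other nuclei at each age. Of these 23 genes 17 were matched, with 19 promoters. Those of Slc12a3, which defined the nuclei, of Abca13, which had the highest ratio at E18.5, and of Kcnj10, the basolateral potassium channel gene, are printed 5′ to 3′, all on the plus strand, with matches to the AP-2 motif in capitals.
Slc12a3: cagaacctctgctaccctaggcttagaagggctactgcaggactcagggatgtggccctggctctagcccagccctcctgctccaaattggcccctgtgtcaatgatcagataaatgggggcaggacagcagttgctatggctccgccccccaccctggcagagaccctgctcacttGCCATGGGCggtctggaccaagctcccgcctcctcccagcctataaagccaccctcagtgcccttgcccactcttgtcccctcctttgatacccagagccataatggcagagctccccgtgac
Abca13: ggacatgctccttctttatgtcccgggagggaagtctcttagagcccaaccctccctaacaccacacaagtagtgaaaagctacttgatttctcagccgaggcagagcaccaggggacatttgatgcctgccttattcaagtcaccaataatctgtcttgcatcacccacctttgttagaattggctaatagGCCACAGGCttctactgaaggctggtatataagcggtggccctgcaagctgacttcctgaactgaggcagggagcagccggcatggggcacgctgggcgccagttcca
Kcnj10: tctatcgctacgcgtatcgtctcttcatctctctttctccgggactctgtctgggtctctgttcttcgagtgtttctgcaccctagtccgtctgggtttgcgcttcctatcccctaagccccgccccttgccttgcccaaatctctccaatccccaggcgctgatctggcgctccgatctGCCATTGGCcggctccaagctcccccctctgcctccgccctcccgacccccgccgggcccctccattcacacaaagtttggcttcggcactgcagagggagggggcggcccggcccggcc
They lie at chr8:94328958-94329257, chr11:9191692-9191991 and chr1:172340960-172341259. In all, 4 motifs were searched on both strands: GCCNNNGGC of AP-2, whose factor Tfap2b is present in the distal nephron, GTTAATNAT of HNF1, TCAAGGTCA of the estrogen-related receptors and ATGCAAAT, the octamer of POU factors. The AP-2 letters, which read the same on both strands, were found in 7 of the 19 promoters (36.8%) and in 16.6% of all 32851 promoters. In Slc12a3, Abca13 and Kcnj10 the match began 73, 58 and 70 bases before the start site. The promoters without the AP-2 letters, none of which is printed, included those of Klhl3, Esrrb, Trpv5, Slc8a1, Egf and Kl. The other 3 motifs were found in none of the 19 promoters, and in 0.801%, 0.423% and 1.73% of all promoters for HNF1, the estrogen-related receptors and the octamer. A match of letters is a description and not a binding site.

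The genes with the highest ratio of all DCT nuclei to the other nuclei at E18.5 were Abca13, the predicted gene Gm13832, Emx1, Esrrb, Tmem72, Gm13075, Klhl3, Gm42941, Gm32569 and the kininogen gene Kng2. At P3 they were Emx1, Abca13, Atp12a, Tmem52b, Kcnj10, 9430037G07Rik, Plekhd1, Defb1, Esrrb and Klhl3. Abca13, Emx1, Esrrb and Klhl3 were in both lists. In Slc12a3-rich nuclei Abca13 was 74.0-fold above the other nuclei at E18.5 (68.7 to 79.7) and 35.9-fold at P3 (33.9 to 38.0). Emx1 was 24.3-fold above them at E18.5 (19.1 to 30.6) and 34.6-fold at P3 (28.1 to 42.5). Of the genes at least 2-fold higher in Slc12a3-rich nuclei, 301 were so at both ages, 59.7% of the E18.5 list and 79.4% of the P3 list. Emx1 was seen in 63 of 140 Slc12a3-rich nuclei at E18.5 (45.0%) and in 80 of 148 at P3 (54.1%), against 1.21% and 0.896% of endothelial nuclei. Its shares in collecting duct nuclei were 6.65% and 6.25%.

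Some regulators of the cotransporter were high in Slc12a3-rich nuclei. Of 12 genes in the list, 10 passed the 25 CPM filter at each age, and 6 of them, the same 6 at both ages, were at least 2-fold higher than in the other nuclei, beside 6.66% of all genes at E18.5 and 5.41% at P3: Wnk1, Wnk4, Stk39, Klhl3, Ppp1r1a and Nr3c2. None was 2-fold lower, and the median log2 ratio of the list was 1.95 at E18.5 and 1.88 at P3, beside −0.15 over all genes at both ages. Wnk1, a kinase gene whose kidney-specific form is made in the distal nephron, stood at 1903 CPM at E18.5 against 335 in the other nuclei, and at 3276 against 391 at P3. Wnk4, the second WNK kinase gene of the segment, stood at 248 against 20.8 and at 344 against 23.2. Stk39, which encodes the SPAK kinase that phosphorylates NCC, was less distinct, at 542 against 207 CPM and 554 against 252. Nr3c2 stood at 660 against 68.6 CPM and at 746 against 115. By contrast, Cul3, the cullin partner of KLHL3, stood at 192 against 174 CPM and 212 against 201. Hsd11b2, the enzyme gene that protects the mineralocorticoid receptor from glucocorticoids, was sparse in Slc12a3-rich nuclei, with 5 and 8 UMIs, or 9.48 and 9.53 CPM against 14.7 and 7.32 in the other nuclei.

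Shares of nuclei with a UMI were set beside those of endothelial nuclei. Klhl3 had a UMI in 114 of 140 at E18.5 (81.4%, 74.0 to 87.5) and in 122 of 148 at P3 (82.4%, 75.3 to 88.2), against 15.4% and 20.8% of endothelial nuclei. Thick limb nuclei had one in 22.8% and 33.3%, and collecting duct nuclei in 20.8% and 33.6%. Thinned to 1000 UMIs per nucleus, these shares of Slc12a3-rich nuclei were 46.0% and 54.3%. Nr3c2 had a UMI in 79.3% and 81.8% of Slc12a3-rich nuclei, against 11.7% and 21.7% of endothelial nuclei, 57.8% and 68.8% of collecting duct nuclei and 41.6% and 56.2% of thick limb nuclei. Wnk1 had one in 89.3% and 93.9% of Slc12a3-rich nuclei, but also in 68.7% and 78.4% of endothelial nuclei and 55.5% and 69.6% of the other nuclei.

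Basolateral transport genes followed. Of 10 genes, 8 passed at each age, with 6 at least 2-fold higher and 1 lower at E18.5 and 7 higher and none lower at P3, beside 6.66% and 5.41% of all genes higher and 9.43% and 8.25% lower. The median log2 ratio was 2.65 at E18.5 and 2.36 at P3. Atp1b1, the beta subunit gene of Na,K-ATPase, stood at 1120 against 215 CPM at E18.5 and at 1156 against 250 at P3. Kcnj10 and Kcnj16 encode the subunits of the basolateral potassium channel. Kcnj10 was at 62.6 against 4.68 CPM at E18.5 and 144 against 5.68 at P3, and Kcnj16 at 550 against 92.5 and 562 against 195. The bicarbonate cotransporter gene Slc4a4, which marks the proximal tubule, was the gene that was lower at E18.5, at 60.7 against 203 CPM.

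Magnesium genes other than Trpm6 were mixed. Of 13 genes, 7 passed at E18.5 and 6 at P3, with 3 at least 2-fold higher at both ages, Trpm7, Cnnm2 and Rragd, and none lower, beside 6.66% and 5.41% of all genes higher and 9.43% and 8.25% lower. The other genes that passed were within 2-fold of the other nuclei. The median log2 ratio was 0.45 and 0.72. Cnnm2, the gene of a basolateral protein mutated in familial hypomagnesaemia, stood at 495 against 48.6 CPM at E18.5 and 490 against 55.9 at P3. Trpm7 stood at 1615 against 266 and 1447 against 278. Pvalb, which encodes parvalbumin and marks the early DCT of the adult mouse, had 6 UMIs in Slc12a3-rich nuclei at E18.5 (11.4 CPM) and 0 at P3, where 3 UMIs would be 3.57 CPM. The potassium channel gene Kcna1 had no UMI in Slc12a3-rich nuclei of either age, where 3 UMIs would be 5.69 CPM at E18.5 and 3.57 at P3.

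Of 10 calcium genes, 6 passed at E18.5, with 2 at least 2-fold higher, and 8 at P3, with 3 higher, beside 6.66% and 5.41% of all genes. None was lower, and the median log2 ratio was 0.35 and 0.50. Atp2b4, a plasma membrane calcium pump gene, stood at 239 against 36.7 CPM at E18.5 and 247 against 47.4 at P3, and the vitamin D receptor gene Vdr at 169 against 19.7 and 251 against 50.7. The pump gene Atp2b1 was not high, at 372 against 382 and 322 against 460. S100g, which encodes the small calbindin, was level with the other nuclei at E18.5, at 218 against 211 CPM, and above them at P3, at 148 against 58.8.

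Of 24 transcription factor genes of the distal nephron, 16 passed at E18.5, with 8 at least 2-fold higher, and 17 at P3, with 9 higher, beside 6.66% and 5.41% of all genes. None was lower, and the median log2 ratio was 1.20 and 1.11. The 8 genes higher at both ages were Tfap2b, Emx1, Esrrb, Esrrg, Sall3, Mecom, Tfcp2l1 and Grhl2, and Prox1 joined them at P3. Sall3, a zinc-finger gene, stood at 117 against 9.74 CPM at E18.5 and 89.3 against 4.29 at P3. Esrrg, an orphan nuclear receptor gene of mitochondrial metabolism, stood at 8086 against 1073 and 8350 against 1747. Ppargc1a, its coactivator and a driver of mitochondrial biogenesis, stood at 1242 against 131 and 843 against 154. Ppargc1a was counted with the oxidative metabolism list, in which 20 of 23 genes passed at each age, with 7 at least 2-fold higher at E18.5 and 5 at P3, beside the same shares of all genes, and none lower. The median log2 ratio there was 0.71 and 0.73, and the enzyme genes Idh3a and Cpt1a were among the higher ones at both ages.

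Some cell cycle genes were lower in Slc12a3-rich nuclei than in the other nuclei. All 18 passed at E18.5, with 6 at least 2-fold lower and none higher, and 14 at P3, with 9 lower and none higher, beside 9.43% and 8.25% of all genes lower. The summed level of the list was 0.851 times that of thick limb nuclei at E18.5 (0.744 to 0.974) and 0.673 times at P3 (0.609 to 0.744), and 0.909 (0.815 to 1.01) and 0.792 times (0.702 to 0.893) that of collecting duct nuclei. The median log2 ratio was −0.89 at E18.5 and −1.09 at P3. Top2a stood at 108 against 255 CPM at E18.5 and 58.4 against 154 at P3, and Mki67 at 85.3 against 154 and 60.7 against 144. Of 13 genes of early nephron stages 9 passed at each age. Mecom was at least 2-fold higher at both ages, Sox11 and Cdh6 were at least 2-fold lower at E18.5, and Wnt4 at P3, beside 6.66% and 5.41% of all genes higher and 9.43% and 8.25% lower, with a median log2 ratio of −0.15 and −0.43.

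Genes of other kidney cells were measured in the same nuclei. The summed level of the 10 proximal tubule genes in Slc12a3-rich nuclei was 0.422 times that in the other nuclei at E18.5 (0.371 to 0.479) and 0.632 times at P3 (0.602 to 0.664), with Lrp2 at 214 against 361 CPM and 436 against 768. Of these genes 5 of the 6 that passed at E18.5 were at least 2-fold lower and 1 of the 9 at P3, beside 9.43% and 8.25% of all genes. In single-UMI DCT nuclei the same sum was 1.15 times that of the other nuclei at E18.5 (1.06 to 1.25) and 1.44 times at P3 (1.39 to 1.48). The sums for podocytes were 0.454 and 0.358 times those of the other nuclei, for stroma 0.489 and 0.459, for endothelium 0.371 and 0.506, for leukocytes 0.353 and 0.499, for nephron progenitors 0.431 and 0.222, for erythroid cells 0.734 and 0.638, and for the thick limb 0.773 and 0.614. In these 7 lists no gene that passed was 2-fold higher, but in some lists few passed. At E18.5 and P3 these were 0 and 1 leukocyte genes, 2 and 1 nephron progenitor genes, 4 and 1 erythroid genes and 2 and 2 thick limb genes. For the 8 intercalated cell genes the sum was 1.39 times that of the other nuclei at E18.5 and 0.435 times at P3. Among them Atp6v0d2, the 1 gene that passed at E18.5, was at least 2-fold higher, beside 6.66% of all genes. Kit, 1 of the 2 genes that passed at P3, was at least 2-fold lower, beside 8.25% of all genes. The sum for the connecting and collecting duct list was 1.69 (1.51 to 1.88) and 2.30 (2.09 to 2.52) times that of the other nuclei, with Scnn1b and Scnn1g higher at both ages among the 7 and 5 genes that passed of 14, beside 6.66% and 5.41% of all genes higher. Scnn1b stood at 192 CPM at E18.5 and 244 at P3 in Slc12a3-rich nuclei and at 319 and 321 in collecting duct nuclei, whereas the water channel gene Aqp2 stood at 30.3 and 8.34 in the first and 368 and 244 in the second. Of the Slc12a3-rich nuclei, 5 at E18.5 and 33 at P3 also met a rule for proximal tubule nuclei (Lrp2 and at least 3 of 8 proximal genes), and 0 and 6 met the like rule for thick limb nuclei. Of the single-UMI nuclei, 17 and 62 met the proximal rule. Scrublet called 19.3% of the Slc12a3-rich nuclei doublets at E18.5 and 27.7% at P3, against 12.8% and 10.8% of all kept nuclei. The part of other cells' RNA and of doublets in the levels above was not tested. The nuclear RNA Malat1 took 80973 CPM in Slc12a3-rich nuclei against 46108 in the other nuclei at E18.5, and 113361 against 67646 at P3, which bears on every CPM value.

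The thick limb nuclei, 101 at E18.5 and 324 at P3, and the collecting duct nuclei, 346 and 128, were taken as the neighbouring segments, with Slc12a1 and Aqp2 among the genes that chose them. Slc12a1, the cotransporter gene of the thick limb, stood at 298 CPM in Slc12a3-rich DCT nuclei at E18.5 and 542 at P3, below the 382 and 857 of the other nuclei. Some genes that were high in Slc12a3-rich DCT nuclei were also high in thick limb nuclei, as the single genes below show. Of 7246 genes 298 (4.11%) were at least 2-fold higher in Slc12a3-rich nuclei than in thick limb nuclei at E18.5 and 420 (5.8%) lower, and at P3 155 of 6816 (2.27%) and 201 (2.95%). Of the 8 basolateral transport genes that passed, none was 2-fold higher than in the thick limb at E18.5, and Slc4a4 was lower. At P3 Kcnj10 was higher and none was lower. None of the 20 oxidative metabolism genes was 2-fold higher or lower at either age. So few of all genes were past 2-fold that nothing is read from these counts. Of the distal transcription factor genes 21 passed at E18.5, with 5 higher and 6 lower than in the thick limb. At P3 19 passed, with 4 higher and 1 lower. The 6 lower at E18.5 were Tfap2b, Sim2, Irx1, Irx2, Prox1 and Ehf. Abca13 was found in 50.5% of thick limb nuclei at E18.5 (40.4 to 60.6) and 57.7% at P3 (52.1 to 63.2), at 607 and 683 CPM, against 79.3% and 73.6% of Slc12a3-rich nuclei, which stood 3.71-fold (3.23 to 4.28) and 3.59-fold (3.35 to 3.86) higher. Esrrb was found in 42.6% and 42.0% of thick limb nuclei and in 39.3% and 54.7% of Slc12a3-rich nuclei. Its level was 271 CPM in thick limb nuclei at E18.5 and 151 at P3 against 193 and 250 in Slc12a3-rich DCT nuclei, and Esrrg at 7054 and 6648 against 8086 and 8350. Kcnj16 stood at 476 and 453 CPM in thick limb nuclei, near its DCT levels of 550 and 562. Wnk4 was at 165 and 93.6 CPM in thick limb nuclei, 1.51-fold (1.11 to 2.06) and 3.68-fold (3.04 to 4.47) lower than in the DCT.

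Other genes separated the DCT from the thick limb. Emx1 had no UMI in thick limb nuclei at E18.5, where 3 UMIs would be 7.59 CPM, and stood at 2.18 CPM at P3, against 169 and 191 in Slc12a3-rich DCT nuclei. Klhl3 was 8.26-fold (5.75 to 12.3) and 9.91-fold (8.43 to 11.7) above the thick limb, Trpm7 5.07-fold (4.20 to 6.16) and 5.09-fold (4.59 to 5.65), Cnnm2 4.77-fold (3.42 to 6.80) and 5.08-fold (4.25 to 6.10), and Wnk1 3.16-fold (2.74 to 3.65) and 4.59-fold (4.29 to 4.90). In the other direction the calcium-sensing receptor gene Casr stood at 34.1 CPM in Slc12a3-rich DCT nuclei and 165 in the thick limb at E18.5, and at 31.0 and 219 at P3. The transcription factor gene Sim2 stood at 1.90 and 142 CPM at E18.5 and at 14.3 and 122 at P3. For the genes in this paragraph the direction was the same in both libraries.

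**Figure D3:**
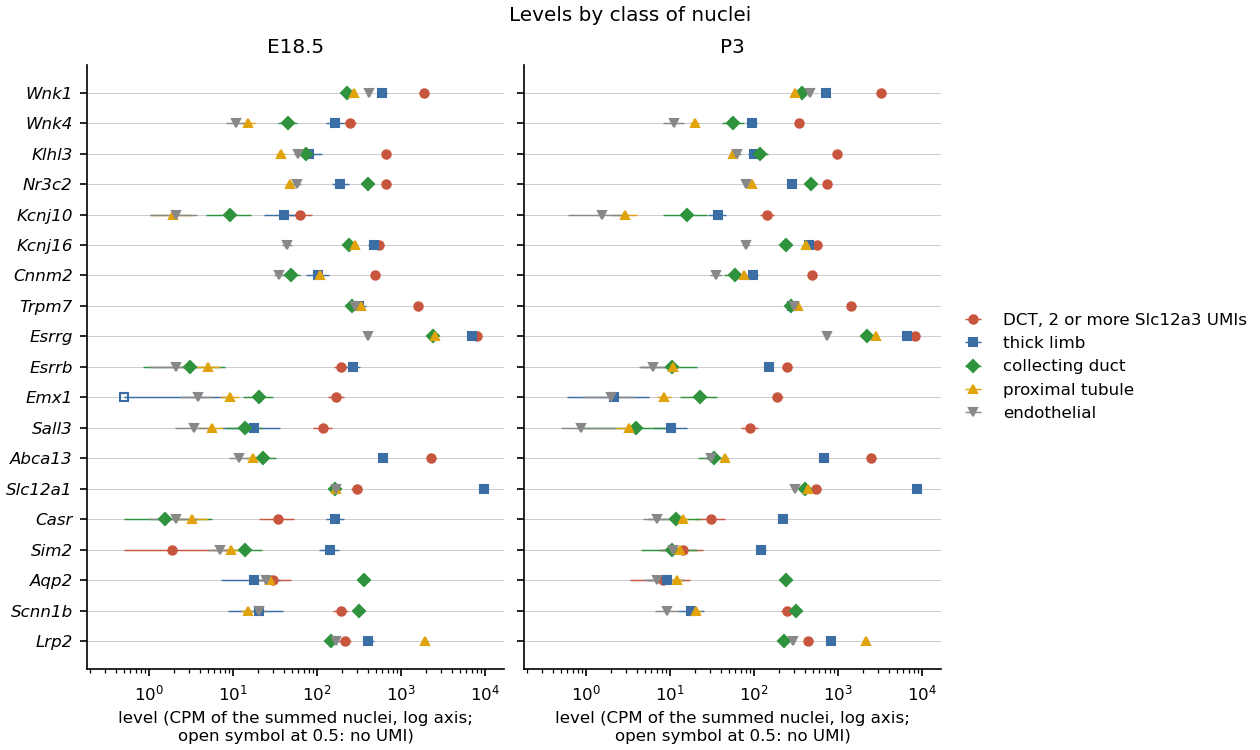
Level in CPM (log x axis) of 19 genes in Slc12a3-rich DCT nuclei and in thick limb, collecting duct, proximal tubule and endothelial nuclei of both libraries, with exact 95% Poisson intervals as bars, cut at 0.5 CPM. Klhl3, Emx1, Cnnm2 and Trpm7 lie highest in the DCT, while Esrrg and Kcnj16 are close to each other in DCT and thick limb nuclei.

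A UMI of the calcium channel gene Trpv5 was found in 27 of the 140 Slc12a3-rich nuclei at E18.5 and 20 of the 148 at P3. It was also found in 2.3% and 3.1% of collecting duct nuclei, against 0.55% and 0.35% of all the other kept nuclei. Whether the nuclei with Trpv5 came from the late DCT or the connecting tubule was not tested. Trpv5 is a rule gene, so the split is a description of the genes measured beside it. The 2 rule genes of calcium transport were higher in nuclei with Trpv5: Slc8a1 stood at 31286 CPM with it and 11094 without it at E18.5, and at 48377 and 13011 at P3, and Calb1 at 1265 and 663, and at 3405 and 873. Slc12a3 itself stood at 3388 and 4900 CPM at E18.5 and 6046 and 5294 at P3. The median depth was 3927 UMIs per nucleus with Trpv5 and 3634 without it at E18.5, and 6122 and 5443 at P3.

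Over all genes outside the rule, 572 of 7129 (8.02%) were at least 2-fold higher with Trpv5 and 611 (8.57%) lower at E18.5, and 341 of 6431 (5.3%) and 826 (12.8%) at P3. Nothing is read from these counts, since 3 UMIs in the nuclei with Trpv5 were already 27.7 CPM at E18.5 and 23.4 at P3, and the single genes below are given by their intervals. Scnn1b stood at 397 CPM with Trpv5 and 138 without it at E18.5, a ratio of 2.87 (1.89 to 4.33), and at 600 and 180 at P3, a ratio of 3.33 (2.48 to 4.46). Scnn1g, the gamma subunit gene of the same sodium channel, had ratios of 3.26 (1.97 to 5.36) and 4.26 (2.92 to 6.18). Nr3c2 had ratios of 1.67 (1.32 to 2.11) and 1.72 (1.42 to 2.07), and the transcription factor gene Tfcp2l1 of 1.89 (1.50 to 2.38) and 1.63 (1.33 to 1.99). Esrrb was lower with Trpv5, at 64.6 against 227 CPM at E18.5 and 117 against 274 at P3, ratios of 0.285 (0.112 to 0.611) and 0.426 (0.234 to 0.720). Abca13 was lower as well, with ratios of 0.718 (0.610 to 0.840) and 0.710 (0.617 to 0.814). All these directions were the same in both libraries.

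Markers of other cells also moved with the split. At E18.5 the endothelial genes summed to 2.91 times as much with Trpv5 as without it (2.06 to 4.11), while at P3 they summed to 0.520 times (0.345 to 0.756). The podocyte genes summed to 0.345 times (0.264 to 0.444) at E18.5 and 0.395 times (0.290 to 0.526) at P3. The thick limb genes summed to 0.653 times (0.421 to 0.978) and 0.179 times (0.106 to 0.286), and the proximal tubule genes to 0.755 times (0.524 to 1.06) and 0.372 times (0.301 to 0.455). The connecting and collecting duct genes, which include Scnn1b and Scnn1g, summed to 1.79 times (1.41 to 2.25) and 2.85 times (2.35 to 3.45). The part of these other cells' RNA in the split was not tested.

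For some genes the interval, which leaves out the spread between nuclei, left 1 in a single library. Trpm7 had ratios of 0.429 (0.339 to 0.537) in the E18.5 library and 0.877 (0.740 to 1.03) in the P3 library. In the same order S100g had ratios of 0.865 (0.511 to 1.40) and 2.94 (1.98 to 4.31), Wnk1 0.892 (0.757 to 1.05) and 1.63 (1.49 to 1.78), and Klhl3 0.992 (0.754 to 1.29) and 1.63 (1.37 to 1.92). Emx1 and Kcnj10 had intervals that held 1 at both ages. Whether a gene differed with the split, or the split between the ages, was not tested.

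**Figure D4:**
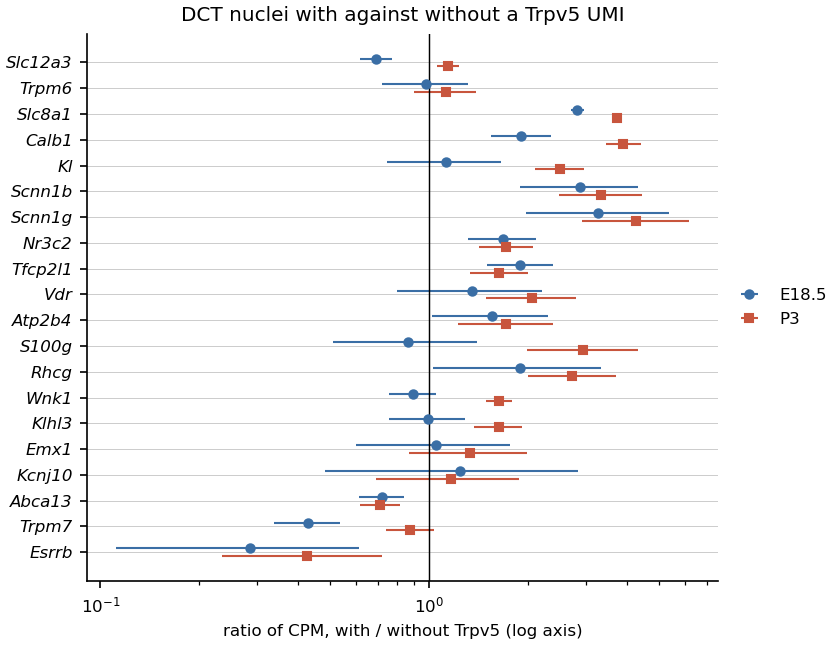
Ratio of CPM in Slc12a3-rich DCT nuclei with a Trpv5 UMI to those without one (log x axis), for 20 genes at E18.5 (circles, 27 against 113 nuclei) and P3 (squares, 20 against 128 nuclei), with exact 95% intervals as bars and a line at 1. Slc8a1, Calb1, Scnn1b and Scnn1g lie right of the line and Esrrb and Abca13 left of it in both libraries.

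The P3 library was then set beside the E18.5 library within the Slc12a3-rich nuclei. Of 6993 genes, 329 (4.7%) were at least 2-fold higher at P3 and 720 (10.3%) at least 2-fold lower. Over all DCT nuclei 281 of 7311 (3.84%) and 661 (9.04%) were. Of the 538 genes that led in Slc12a3-rich nuclei at either age and had enough UMIs, 33 were at least 2-fold higher at P3 and 21 at least 2-fold lower. Relative to the age ratio of the same gene in the other nuclei the balance was the opposite, with 13 at least 2-fold higher, 47 at least 2-fold lower and a median log2 of −0.33. Nothing is read from that balance, since genes that led at E18.5 alone lie low on this measure through how they were chosen and the E18.5 list was the longer, with 504 genes against 379. The lists gave counts that are to be read beside those shares of all genes. None of the 10 cotransporter regulators that passed was 2-fold higher and 1, the kinase gene Sgk1, was lower, with a median log2 ratio of 0.17. Of the 8 basolateral genes 2 were higher, Kcnj10 and Slc4a4, and none lower, with a median of 0.04. Slc4a4 was at least 2-fold higher at P3 in the other nuclei and in thick limb nuclei too. None of 6 magnesium genes was past 2-fold, with a median of −0.09. Among 18 transcription factor genes Prox1 was higher and Emx2 lower, with a median of 0.04. Of 8 calcium genes Cyp24a1 was higher, with a median of −0.05, and of 20 oxidative metabolism genes Ppargc1b was higher and Cox4i1 and Cox5a lower, with a median of −0.10. The median over all genes was −0.07.

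Among single genes, Kcnj10 was 2.30-fold higher at P3 in Slc12a3-rich nuclei (1.56 to 3.50), and 1.21-fold higher in the other nuclei (1.01 to 1.45). Wnk1 was 1.72-fold higher (1.60 to 1.85), and 1.17-fold in the other nuclei (1.14 to 1.19). Klhl3 was 1.47-fold higher (1.29 to 1.67), beside 1.56-fold (1.47 to 1.65) in the other nuclei, so the ratios lay within each other's intervals. Ppargc1a was lower at P3, with a ratio of 0.679 (0.610 to 0.756) against 1.17 (1.13 to 1.21) in the other nuclei. Atp12a, the gene of the non-gastric proton-potassium pump, stood at 32.2 CPM at E18.5 and 178 at P3, a ratio of 5.51 (3.33 to 9.71), against 2.81 (2.23 to 3.55) in the other nuclei.

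Among the 10 genes with the highest ratio of P3 to E18.5 over all DCT nuclei were Slc13a3, G6pc, Cyp24a1, Slc13a2, Gm20400, Hgd, Hnf4aos, Gm31641 and Miox. Several of them are known from the proximal tubule, and each of those named was at least 2-fold higher in the other nuclei too. G6pc, the glucose-6-phosphatase gene, stood at 2.03 CPM (2 UMIs) at E18.5 and 96.0 at P3 in DCT nuclei, a ratio of 47.2 (12.9 to 393), and at 3.92 and 111 in the other nuclei. The dicarboxylate transporter gene Slc13a3 had 1 UMI at E18.5 and 102 at P3 in DCT nuclei, a ratio of 58.0 (10.2 to 2313), and stood at 6.39 and 46.6 CPM in the other nuclei. The 10 proximal tubule marker genes together were 4.16-fold higher at P3 in Slc12a3-rich nuclei (3.63 to 4.78) and 2.78-fold in the other nuclei (2.75 to 2.80). The part of RNA from other cells in this difference was not tested.

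The 10 genes with the lowest ratio were Il31ra, Hbb-bs, Reln, Siva1, Ifitm3, Nop10, Bst2, Rps4x, Fabp4 and Rpl7. All 10 were at least 2-fold lower in the other nuclei as well. The haemoglobin gene Hbb-bs stood at 438 CPM at E18.5 and 48.6 at P3 in DCT nuclei and at 528 and 71.3 in the other nuclei, and the ribosomal protein gene Rpl7 at 611 and 91.4 and at 697 and 118. The respiratory chain gene Cox4i1 stood at 480 CPM at E18.5 and 123 at P3 in DCT nuclei and at 489 and 128 in the other nuclei. These differences were common to DCT nuclei and the rest of each library.

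Genes whose age ratio differed most from that of the other nuclei were then named among the 538 leading genes, by a rule chosen after the values were seen. Genes that led at a single age lie far out on this measure through how they were chosen. The ratios below are therefore a description of the genes picked, and no age difference is read from them. Cyp2j11, a cytochrome P450 gene, stood at 19.0 CPM in Slc12a3-rich nuclei at E18.5 and 214 at P3, a ratio of 11.3 (6.01 to 24.0), against 2.04 (1.83 to 2.27) in the other nuclei. Fpgs, the folylpolyglutamate synthase gene, had a ratio of 4.90 (1.93 to 15.9) against 1.29 (1.17 to 1.43), and the collagen galactosyltransferase gene Colgalt2 4.03 (2.18 to 8.14) against 1.59 (1.43 to 1.76). In the other direction Greb1 had 53 UMIs in the E18.5 library and 21 in the P3 library, which is a ratio in CPM of 0.249 (0.143 to 0.420), while it stood at 33.4 and 33.8 CPM in the other nuclei. Nabp1, a single-stranded DNA-binding protein gene, stood at 349 and 96.5 CPM, a ratio of 0.277 (0.210 to 0.361), and stood at 41.1 and 41.2 in the other nuclei. The phosphodiesterase gene Pde10a stood at 641 and 125 CPM, a ratio of 0.195 (0.155 to 0.244), against 0.567 (0.544 to 0.590). Thick limb nuclei showed low ratios for Nabp1, at 0.318 (0.248 to 0.408), for Pde10a, at 0.148 (0.114 to 0.193), and for Greb1, at 0.344 (0.191 to 0.634), whereas Cyp2j11 had a ratio of 0.762 (0.383 to 1.65) there.

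**Figure D5:**
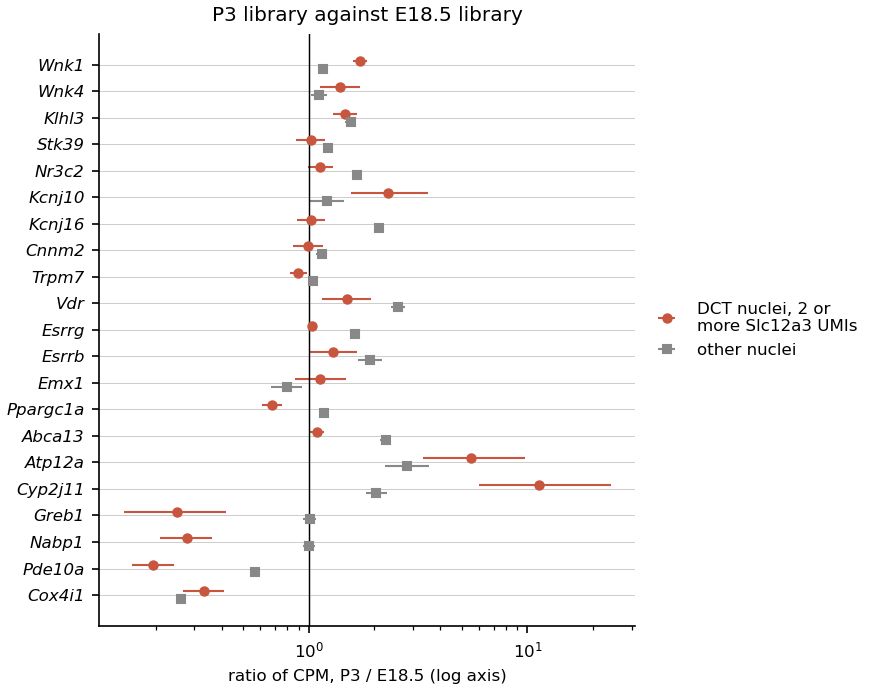
Ratio of CPM in the P3 library to that in the E18.5 library (log x axis) for 21 genes, in Slc12a3-rich DCT nuclei (circles) and in the other kept nuclei (squares), with exact 95% intervals as bars and a line at 1. Cyp2j11 and Atp12a lie to the right and Greb1, Nabp1 and Pde10a to the left of their values in the other nuclei, while Cox4i1 is low in both. Cyp2j11, Greb1, Nabp1 and Pde10a were picked for this offset.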

How the data were processed

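The authors deposited raw UMI counts per gene and barcode, without normalization, made with 10x Genomics Cell Ranger. The submitters' processing notes name release 5.0.1 and mm10 for both libraries, while the header of the E18.5 matrix names 7.0.0 and that of the P3 matrix 5.0.1, and whether intronic reads were counted is not given in the sources used here. Nuclei were isolated from pooled frozen kidneys and sequenced with a 3′ kit. The libraries held 21600 barcodes with 77688411 UMIs at E18.5 and 12216 with 70559806 at P3.

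UMIs were summed over the nuclei of a class and scaled to CPM. Genes with a mean of at least 25 CPM in the 2 classes compared and outside the rule were called at 2-fold, by size alone. The genes with the 10 highest or lowest ratios needed 30 UMIs in the DCT nuclei (for ages, in the higher library), and mitochondrial and Y-linked genes were left out between ages. Levels have exact Poisson, shares exact binomial (Clopper-Pearson) and ratios exact conditional binomial intervals. Rules like that of the DCT set the thick limb, collecting duct, proximal tubule and endothelial nuclei, which exclude DCT nuclei. Scrublet (scanpy 1.11.5; expected rate 0.1) marked doublets, which were not removed. Of 32285 gene identifiers 99.6% were in GENCODE M21. Of 213 list genes 210 were found. A few genes that the naming rule or the lists hold are not reported here. The members, lists and alternatives were chosen with earlier results of these data known, and the split at 5 Slc12a3 UMIs and the comparison of age ratios with the other nuclei were added later. Scripts ran under Python 3.11.15 (numpy 2.4.6; scipy 1.17.1; pandas 2.3.3; matplotlib 3.10.9), and the ratios and intervals were tested on simulated data.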

Additional observations from a re-analysis of the deposited data

Results flagged for a closer look

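Barcodes above the upper UMI limits lay outside every comparison in the report, and some of them met the marker rule. At E18.5, 113 of 2305 such barcodes (4.90%) did, 66 of them with 2 or more Slc12a3 UMIs and 60 with 5 or more. At P3, 168 of 1572 (10.7%) did, 73 with 2 or more and 64 with 5 or more. Scrublet called 69.0% and 70.2% of these barcodes doublets. In those with 2 or more Slc12a3 UMIs, Slc12a3 stood at 2051 CPM at E18.5 and 2321 at P3, and Abca13 at 901 and 1289 CPM, less than in the Slc12a3-rich DCT nuclei within the limits.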

How the results depend on the processing

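No paired analysis was possible because each age has 1 library. With 1 library per age, the values rest on counting error alone, and depth limits genes with few UMIs.

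The shares at E18.5 and P3 were 0.530% and 1.20% with nuclei thinned to 1000 UMIs, 0.750% and 1.59% with at least 2 Slc12a3 UMIs, 0.621% and 1.27% with at least 5 (chosen after seeing the data), 0.514% and 1.27% with at least 4 of the 7 genes, 1.84% and 4.40% with no upper UMI limit, and 0.438% and 0.554% without members that had 3 genes of another class, a test that 81.2% and 87.0% of the other nuclei also met. Without called doublets the P3 share was 2.96%. In each of these the P3 share was the higher.

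The number of genes at least 2-fold higher in DCT nuclei at E18.5 and P3, 268 and 164 in the report, was 504 and 380 with at least 2 Slc12a3 UMIs (nuclei with 1 counted among the others), 550 and 439 with at least 5, 519 and 412 with at least 4 genes, 171 and 77 with no upper limit, 564 and 574 without members with genes of another class, and 1805 and 1513 with no filter. The genes higher and lower at P3, 281 and 661, were 1769 and 2350 with no filter and 475 and 1091 without members with genes of another class. Scaling by the median ratio removed medians of −0.09, −0.08 and −0.05 (log2) from the 3 comparisons, so the ratios rose. The genes higher in DCT nuclei then numbered 314 and 190, and those higher and lower at P3 319 and 604.

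Of 1225 single-gene values over 155 ratios, 934 stayed within the interval of the reported ratio, 288 left it in size, and 3 reversed. The ratio of P3 to E18.5 became 0 for Gm31641 and for Cnnm4 without members with genes of another class, and 0.997 for Egfr with at least 5 Slc12a3 UMIs. The cause was not tested.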
